A study of Mus musculus with 6 samples.

Results

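The genes described here are 9 receptor genes of purinergic signalling: the P2Y receptor genes P2ry1, P2ry2, P2ry6, P2ry12, P2ry13 and P2ry14, the P2X channel genes P2rx4 and P2rx7, and Gpr34, a close relative of the P2Y12 group. They were taken by symbol, and all 9 were among the 24421 gene symbols listed for each of the 6 libraries and among the 18413 genes tested. RNA-seq was performed on olfactory bulb cells of male mice, for which the study's general methods give an adult age, that had been sorted for TurboRFP, 1 mouse per library, 4 weeks after injection of AAV-GFAP-iCre-P2a-TurboRFP into the bulb. The 3 Sox9 knockout (KO) mice carried Sox9 fl/fl, and the 3 control mice were C57BL/6J with unfloxed Sox9. All 6 mice received the same virus, so Cre and TurboRFP were present in both groups. The GFAP promoter drives Cre, which limits deletion to the cells in which that promoter is active, and the cells were sorted straight into lysis buffer, so the study judged purity from marker genes in the RNA-seq rather than by a check of the sorted cells. Strain background and Sox9 genotype cannot be told apart in this design.

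P2 receptors sense nucleotides outside the cell. P2X receptors are cation channels opened by ATP, whereas P2Y receptors are G protein-coupled receptors for ADP, ATP, UTP, UDP or UDP-sugars, coupled mainly to Gq with phospholipase C (P2Y1, P2Y2, P2Y6) or to Gi (P2Y12, P2Y13, P2Y14). In the brain, P2ry12, P2ry13, P2ry6 and Gpr34 are known as microglial genes, and P2Y12 guides microglial processes toward sites of ATP and ADP release. Astrocytes are known to use P2Y1 for calcium signalling, and cell-surface enzymes remove the nucleotides again.

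The libraries held 18242129 to 86906527 reads on genes. Values are normalized counts, that is, reads divided by 1 size factor per library. A gene was called at a limma adjusted p of at most 0.05 and a change of at least 1.5-fold. Sox9 itself was 5185, 6562 and 4921 normalized counts in control libraries 1, 2 and 3 and 52.6, 64.3 and 57.7 in KO libraries 1, 2 and 3, a 95.4-fold lower mean in KO. The labelled cell type was checked against marker lists. All 12 astrocyte markers were called lower in KO, and their summed level was 505037 to 561233 in control and 36677 to 47264 in KO libraries. Of 16 microglia markers, 15 were called higher, and their summed level was 265316 to 294927 in control and 817941 to 968663 in KO. The exception was Fcrls, at 14482 to 16949 in control and 8915, 21453 and 29098 in KO. The summed microglia markers were 0.473 to 0.546 times the summed astrocyte markers in control and 20.1 to 26.4 times in KO, so in the KO libraries, labelled as astrocytes, the astrocyte markers stood far below the microglia markers. In bulk libraries, more or fewer cells of a type and more or less RNA per cell cannot be told apart. This holds for Sox9 and for every gene below.

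Promoter sequences are shown for the 3 neighbouring P2Y genes that rose together and for P2ry1, the member that fell. They run from 250 bases before to 50 bases after the RefSeq start site (GRCm38.p6), 5′ to 3′ on the gene's own strand, and capitals mark GAGGAA or GGAAGT on either strand, letters found in sites of PU.1, the Ets-family factor of macrophages and microglia. The motifs overlap in GGAA. For P2ry14 the most upstream of 4 start sites is shown.
P2ry12, chr3:59262936-59263235, minus strand: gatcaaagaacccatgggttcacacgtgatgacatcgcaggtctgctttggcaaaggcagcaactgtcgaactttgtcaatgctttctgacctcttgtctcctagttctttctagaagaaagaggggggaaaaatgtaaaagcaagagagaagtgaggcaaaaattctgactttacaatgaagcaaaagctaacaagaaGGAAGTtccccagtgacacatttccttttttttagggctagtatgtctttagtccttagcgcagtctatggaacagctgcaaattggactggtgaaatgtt
P2ry13, chr3:59210833-59211132, minus strand: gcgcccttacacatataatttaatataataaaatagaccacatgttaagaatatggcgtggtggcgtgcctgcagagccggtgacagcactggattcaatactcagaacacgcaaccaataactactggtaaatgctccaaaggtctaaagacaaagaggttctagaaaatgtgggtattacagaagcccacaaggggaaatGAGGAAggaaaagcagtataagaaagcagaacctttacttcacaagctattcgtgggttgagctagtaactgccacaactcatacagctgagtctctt
P2ry14, chr3:59153443-59153742, minus strand: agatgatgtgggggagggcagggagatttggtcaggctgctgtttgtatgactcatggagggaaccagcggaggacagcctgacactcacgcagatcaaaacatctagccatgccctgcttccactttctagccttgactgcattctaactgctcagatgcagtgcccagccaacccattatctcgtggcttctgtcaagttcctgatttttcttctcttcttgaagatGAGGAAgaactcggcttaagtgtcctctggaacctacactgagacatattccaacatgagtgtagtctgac
P2ry1, chr3:61002535-61002834, plus strand: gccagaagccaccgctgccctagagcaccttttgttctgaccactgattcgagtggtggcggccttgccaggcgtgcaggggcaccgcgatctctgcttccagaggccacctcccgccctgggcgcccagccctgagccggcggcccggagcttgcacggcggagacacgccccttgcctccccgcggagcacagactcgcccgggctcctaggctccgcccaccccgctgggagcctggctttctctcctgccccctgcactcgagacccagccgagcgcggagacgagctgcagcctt
P2ry13 and P2ry14 held GAGGAA 48 and 21 bases before the start site, and P2ry12 held GGAAGT 51 bases before it. P2ry1 held neither, and neither did P2rx4, which rose, or P2ry2, which was not called, while P2rx7, which rose, held both. Among all 32851 mouse promoters of the same length, 28.3% held GAGGAA, 23.8% held GGAAGT and 43.4% held at least 1 of them, so a match is common and is given as a description only. The promoters also differed in base composition: GC content was 42.3% for P2ry12 and P2ry13, 49.3% for P2ry14 and 70.7% for P2ry1, against a median of 52.7% over all promoters. The P2ry1 promoter held 25 CpG sites, against 4 to 6 in the other 3. P2rx4, which rose, had 60.3% GC and 18 CpG sites. P2rx7, which rose, had 51.7% to 53.3% GC, and P2ry2, which was not called, had 67.3% to 71%.

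In the comparison of KO with control, which asks how gene expression in the sorted cells differed after loss of Sox9, 7 of the 9 genes were called higher in KO (P2ry6, P2ry12, P2ry13, P2ry14, P2rx4, P2rx7 and Gpr34), P2ry1 was called lower, and P2ry2 was not called. Changes were broad in these libraries: 22.2% of all genes tested were called higher and 28.8% lower. The KO and control values of the same 7 genes did not overlap and were higher in KO, as for 32.4% of all genes tested. P2ry1 was lower in every KO library, as for 34.7% of all genes. The median log2 fold change was 1.67 over the 9 genes and -0.07 over all genes tested. The 9 genes were chosen with earlier results of these data known, so their comparison with all genes is a description only.

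**Figure D1:**
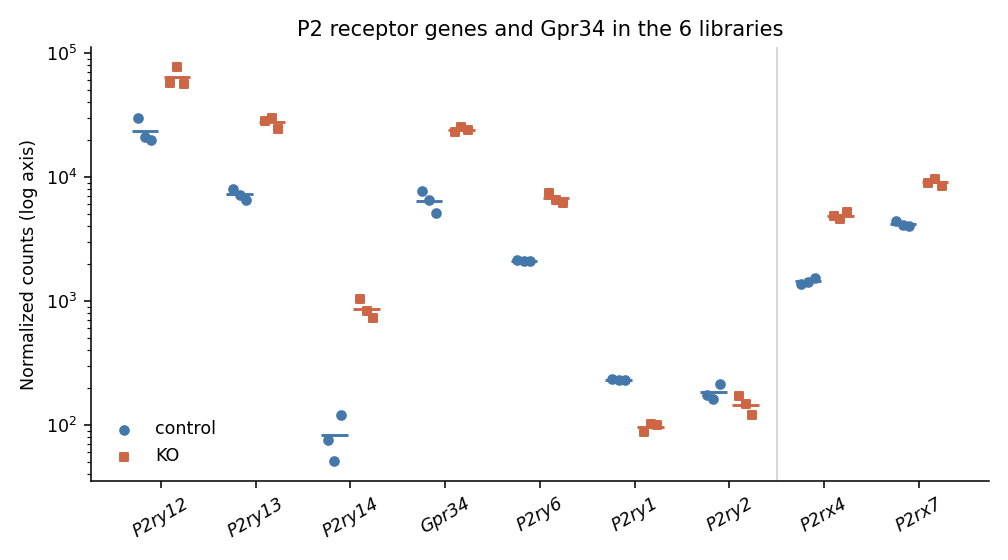
Normalized counts (log axis) of the 9 genes in the 3 control (circles) and 3 KO (squares) libraries, with group means as bars and the P2X genes to the right of the vertical line. For 7 genes every KO library lies above every control library, for P2ry1 every KO library lies below, and for P2ry2 the groups overlap.

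The ADP receptors coupled to Gi both rose. P2ry12, the receptor of microglial process extension, had 29785, 21162 and 19862 normalized counts in the control libraries and 57579, 76927 and 55839 in the KO libraries. All 3 KO libraries stood above the controls, with the spread of the KO group (SD 11705, n = 3) larger than for any other member. The mean was 2.69-fold higher in KO (log2 fold change 1.43, SE 0.17, adjusted p = 4e-05). P2ry13, a second ADP receptor, had 7977, 7178 and 6570 in control and 28383, 29769 and 24314 in KO. It was 3.80-fold higher (log2 fold change 1.92, SE 0.11, adjusted p = 1.8e-07). Although both genes rose, the ratio of their normalized counts, P2ry12 over P2ry13, was 3.24 ± 0.433 (SD, n = 3) in control and 2.30 ± 0.278 in KO, with no overlap between the groups.

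P2ry14, the receptor for UDP-glucose, had the largest fold change of the 9. It had 76.0, 50.9 and 119.8 normalized counts in control and 1026, 834.9 and 733.7 in KO. Control values rested on 52 to 76 reads per library, whereas KO values rested on 483 to 2115, so the control level is the less precise. The mean was 10.5-fold higher in KO (log2 fold change 3.45, SE 0.28, adjusted p = 2.3e-06). The ratio of P2ry14 to P2ry12 counts was 0.00366 ± 0.00205 in control and 0.0139 ± 0.00356 in KO (SD, n = 3), and the groups did not overlap.

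Gpr34, a receptor for lysophosphatidylserine rather than a nucleotide, followed P2ry13 closely. Its values were 7732, 6508 and 5120 in control and 22829, 25215 and 24000 in KO. This is 3.72-fold higher (log2 fold change 1.91, SE 0.14, adjusted p = 8.6e-07). The ratio of P2ry13 to Gpr34 was 1.14 ± 0.130 in control and 1.15 ± 0.119 in KO (SD, n = 3), and the groups overlapped.

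The Gq-coupled receptors did not move together. P2ry6, the UDP receptor that is known to trigger microglial phagocytosis, had 2126, 2110 and 2084 normalized counts in control and 7379, 6538 and 6200 in KO. The control libraries were nearly identical (SD 21.4, n = 3), and the gene was 3.18-fold higher in KO (log2 fold change 1.67, SE 0.09, adjusted p = 1.4e-07). P2ry1, the ADP receptor of astrocyte calcium signalling, had 235.3, 229.9 and 231.7 in control and 88.4, 101.5 and 100.3 in KO. Its mean was 2.40-fold lower in KO (log2 fold change -1.26, SE 0.19, adjusted p = 0.00021), beside a 12.9-fold lower sum of the astrocyte markers. P2ry2, the receptor for ATP and UTP, had 175.4, 161.0 and 212.8 in control and 169.8, 148.0 and 120.0 in KO. The groups overlapped, and the log2 fold change was -0.33 (95% confidence interval -0.81 to 0.15, adjusted p = 0.21). Its direction turned to a log2 fold change of 0.30 under quantile normalization, while scaling to the same total without the ribosomal transcript Rn45s gave -0.65 (adjusted p = 0.022). The ratio of P2ry1 to P2ry2 counts was 1.29 ± 0.176 in control and 0.680 ± 0.158 in KO (SD, n = 3), without overlap.

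Both ATP-gated channels rose, to different degrees. P2rx4, a channel of high ATP affinity, had 1377, 1429 and 1532 normalized counts in control and 4797, 4597 and 5194 in KO, and was 3.36-fold higher (log2 fold change 1.75, SE 0.09, adjusted p = 1e-07). P2rx7, which needs high ATP and is known to drive inflammasome activation, had 4400, 4112 and 4045 in control and 8983, 9643 and 8433 in KO. It was 2.15-fold higher (log2 fold change 1.11, SE 0.09, adjusted p = 1.8e-06), the smallest change among the 7 genes that rose. The ratio of P2rx7 to P2rx4 counts was 2.90 ± 0.279 in control and 1.86 ± 0.237 in KO (SD, n = 3), without overlap. For these ratios of 3 against 3 libraries no p is given, since an exact two-sided permutation test cannot go below 0.10. How often ratios of other gene pairs separate was not computed. Among single genes, 32.4% separated with KO higher and 34.7% with KO lower, so a ratio without overlap is given as a description only.

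Because microglia markers moved with these genes, each library was also scaled to the same summed level of the 16 microglia markers, none of which is a P2 receptor gene. On this scale 1.38% of all genes were called higher in KO and 77.2% lower, and of the 9 receptor genes 1 was called higher, 3 lower and 5 were not called. P2ry14 was the gene that remained higher, at 0.258, 0.192 and 0.446 per 1000 microglia marker counts in control and 1.06, 0.875 and 0.897 in KO (log2 fold change 1.74, SE 0.28, adjusted p = 0.00011). P2rx7 was lower relative to the markers: 14.9, 15.5 and 15.1 per 1000 in control and 9.27, 10.1 and 10.3 in KO (log2 fold change -0.62, SE 0.11, adjusted p = 0.00023). P2ry1 and P2ry2 were lower by larger amounts (log2 fold changes -2.97 and -2.04), on a scale where the median over all genes tested was -1.67.

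The other 5 genes moved by amounts close to the marker sum. P2ry12 was 101.0, 79.8 and 74.0 per 1000 microglia marker counts in control and 59.4, 80.6 and 68.3 in KO, with overlap (log2 fold change -0.29, 95% confidence interval -0.66 to 0.08, adjusted p = 0.13). The log2 fold changes of P2ry6, P2rx4, Gpr34 and P2ry13 were -0.06 (interval -0.30 to 0.19), 0.03 (-0.28 to 0.34), 0.19 (-0.13 to 0.52) and 0.20 (-0.05 to 0.45). For P2ry13 all 3 KO libraries (29.3 to 31.2 per 1000) stood above the controls (24.5 to 27.1), but the difference did not pass the test (adjusted p = 0.12). Without Cst3, which astrocytes also express, and with the mean log2 level of the markers in place of their sum, a setting chosen after seeing the data, the same call was made for each of the 9 genes, although P2ry12 reached -0.41 (adjusted p = 0.033) without passing 1.5-fold. Whether the rise in microglia markers accounts for the rise of the receptor genes was not tested.

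**Figure D2:**
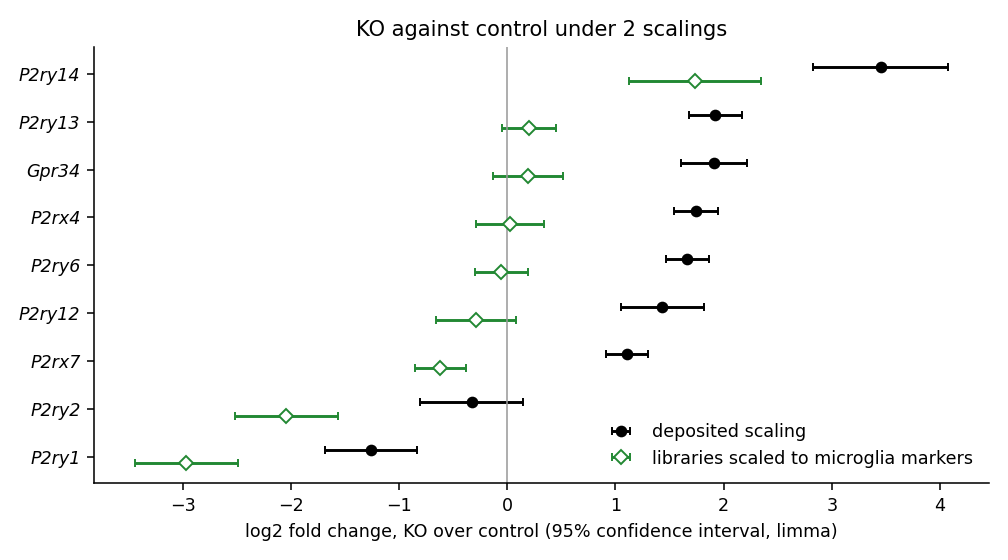
log2 fold change (KO over control) of the 9 genes with 95% confidence intervals from limma, n = 3 per group, on the deposited scaling (filled circles) and with libraries scaled to summed microglia markers (open diamonds). P2ry14 lies above 0 on both scales and P2ry1 below 0 on both, while P2rx7 changes sides from 1.11 to -0.62.

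The markers of other cells that can carry these receptors were measured in the same libraries. For border macrophages, 2 of 7 markers were called higher (Mrc1 and Ms4a7) and 4 lower (Cd163, Lyve1, Pf4 and F13a1). The summed levels were 15308 to 23000 in control and 22393 to 26091 in KO, mostly from Mrc1, with means of 11774 and 18847. For platelets, which carry P2Y12 and P2Y1, none of 5 markers was called higher and 1 was called lower, and the summed levels were 151 to 184 in control and 108 to 162 in KO. Neutrophil markers were called lower (4 of 4 listed), but their summed levels overlapped, at 537.8 to 4289 in control and 98.7 to 539.1 in KO. Control library 2 stood highest, as for S100a8 (213.4, 1721 and 343.6 in control). Neuron markers were lower for 8 of 9. The called markers were 1 higher of 4 for monocytes, 1 higher of 5 for T and NK lymphocytes and 1 higher of 4 tested for B lymphocytes. All 6 oligodendrocyte and all 5 oligodendrocyte precursor markers, 5 of 6 for olfactory ensheathing cells, 4 of 5 for mural cells and 1 of 3 for ependymal cells were lower, and endothelial markers were split (1 higher, 2 lower of 5). Of 5 erythroid markers, 4 were listed at 0 in all libraries and Alas2 was called lower. Their part in the levels of the receptor genes was not tested.

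Levels of different genes were compared per length, as normalized counts per kilobase of RefSeq transcript. The order in the control group was P2ry12, Gpr34, P2ry13, P2rx7, P2ry6, P2rx4, P2ry2, P2ry1 and P2ry14. The first 6 places were the same in KO, while P2ry14 moved from the last place to the seventh, above P2ry2 and P2ry1. In the control group Gpr34 and P2ry13 overlapped, as did P2ry1 and P2ry14, whereas no neighbours in the order overlapped in KO. P2ry12 made up 50.01% ± 3.29 of the summed per-kilobase level of the 9 genes in control and 44.9% ± 3.39 in KO (SD, n = 3), with overlap. The share of P2rx7 went from 10.8% ± 1.17 to 7.67% ± 0.336, and those of Gpr34 and P2ry13 went from 15.9% ± 1.305 to 19.9% ± 1.53 and from 13.5% ± 0.865 to 17.1% ± 1.09, in each case without overlap between the groups. How often shares in other sets of genes separate was not computed. With the union of all exons as length, P2rx7 fell behind P2ry6 in control and behind P2ry6 and P2rx4 in KO.

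**Figure D3:**
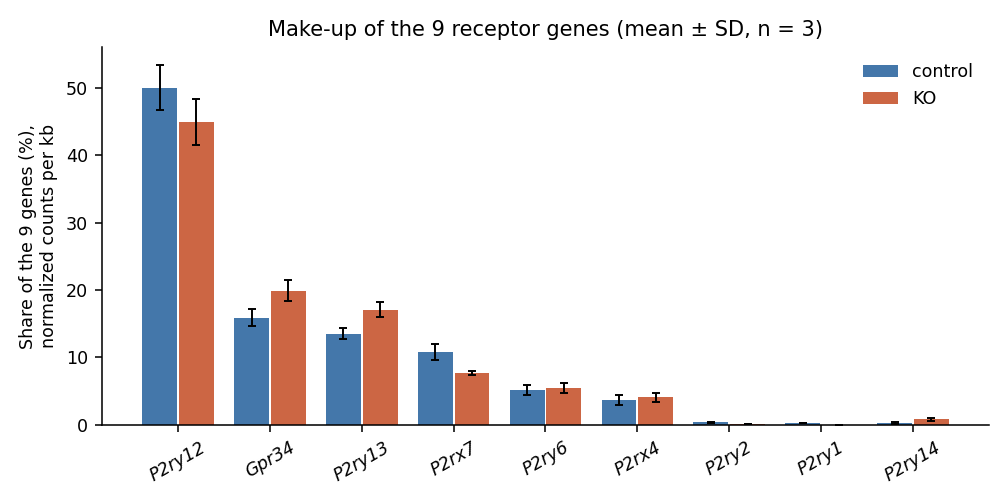
Share of each gene in the summed per-kilobase level of the 9 genes (percent, mean ± SD, n = 3) in control and KO libraries. P2ry12 is the largest share in both groups, at 50.01% and 44.9%.

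The positions of the genes were read from the GENCODE M21 annotation (GRCm38). P2ry12 (chr3:59216272-59262871), P2ry13 (chr3:59207892-59210882) and P2ry14 (chr3:59113855-59153618) lie in 1 cluster on the minus strand, all inside Med12l, which runs on the plus strand and shares 0 exon bases with them. Med12l had a mean of 1604 normalized counts in control and 2131 in KO (log2 fold change 0.42, adjusted p = 0.018) and did not pass 1.5-fold. The related receptor gene Gpr171, near P2ry14, was called higher, at 81.8, 133.5 and 100.9 in control and 158.8, 169.7 and 311.4 in KO (log2 fold change 0.97, SE 0.30, adjusted p = 0.017). The call of Gpr171 was lost with libraries scaled to the same total (0.73, adjusted p = 0.07) or to the same total without Rn45s (0.65, adjusted p = 0.093), and without KO replicate 3, control replicate 1 or control replicate 3 (adjusted p = 0.076, 0.074 and 0.067).

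**Figure D4:**
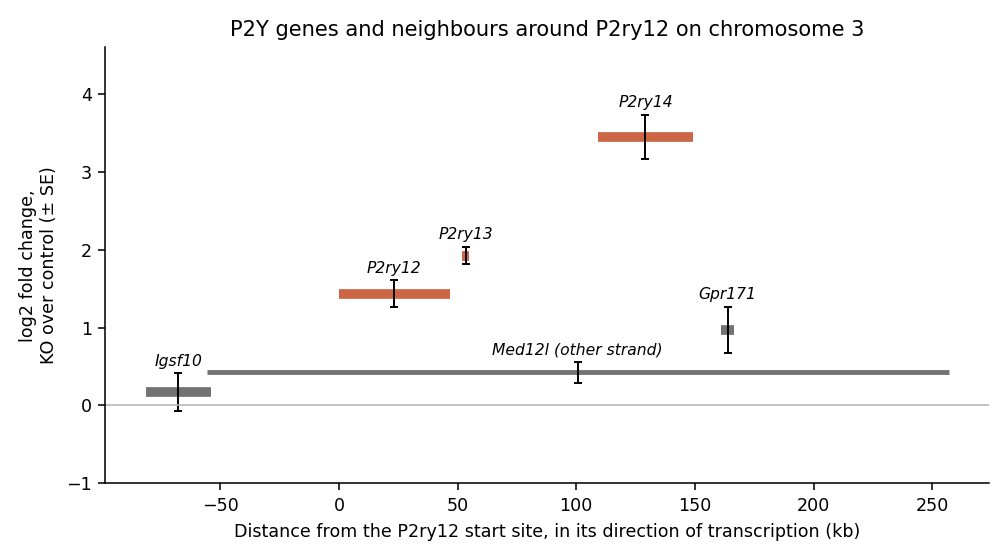
log2 fold change (KO over control, ± SE, vertical axis) of genes around P2ry12, drawn to scale by distance from the P2ry12 start site (kb, horizontal axis). P2ry12, P2ry13 and P2ry14 lie at 1.43, 1.92 and 3.45, and Med12l on the other strand lies at 0.42.

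Gpr34 (chrX:13632089-13640858, plus strand) lies inside Cask on the opposite strand with 0 shared exon bases, and Cask was lower in KO without passing 1.5-fold (log2 fold change -0.45, adjusted p = 0.0014). Gpr82, a receptor gene 20505 bp from Gpr34, was called higher (59.9, 45.4 and 48.9 in control and 102.3, 116.5 and 72.9 in KO, log2 fold change 0.89, SE 0.29, adjusted p = 0.022). The call of Gpr82 was lost with libraries scaled to the same total (0.65, adjusted p = 0.083) or to the same total without Rn45s (0.57, adjusted p = 0.12), and without KO replicate 1 or 2 or control replicate 2 or 3 (adjusted p from 0.058 to 0.076). On the scale of summed microglia markers Gpr82 was called lower (-0.81), as were 77.2% of all genes tested. P2rx7 (chr5:122643911-122691432) and P2rx4 (chr5:122707544-122729738) are neighbours on the plus strand, 16112 bp apart. An exon of P2rx7 contains Mir8115, so their reads are not fully separable. P2ry6 (chr7:100937630-100974649) and P2ry2 (chr7:100996568-101012866), both on the minus strand and 21919 bp apart, differed in outcome, since P2ry6 rose and P2ry2 was not called. P2ry1 (chr3:61002795-61008982, plus strand) shares 992 of its 3889 exon bases with the antisense gene Gm37035. No source used here states whether counting used strand, so reads from the shared bases cannot be told apart.

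Of the 8 remaining P2 receptor genes, 1 was called higher, 2 were called lower and 5 were not called, beside 22.2% higher and 28.8% lower of all genes tested. The median log2 fold change of the 8 was -0.57. P2rx6, a subunit that forms channels poorly on its own, had the largest change, at 280.6, 176.9 and 294.8 normalized counts in control and 30.8, 45.8 and 33.4 in KO (log2 fold change -2.73, SE 0.29, adjusted p = 1.6e-05). P2rx3, known from sensory neurons, was also lower (23.4, 8.3 and 20.5 against 6.0, 0.4 and 4.6), a call that was lost with edgeR (adjusted p = 0.058), under quantile normalization (adjusted p = 0.11) and without KO replicate 2, control replicate 1 or control replicate 3 (adjusted p = 0.075, 0.094 and 0.092). P2ry10b, listed under its older symbol A630033H20Rik, was higher, at 255.7, 254.6 and 203.3 in control and 378.2, 529.4 and 508.9 in KO. Reads of P2ry10b and its close relative P2ry10 may not be fully separable. P2ry4, P2ry10, P2rx1, P2rx2 and P2rx5 stayed at or below 106.2 normalized counts in every library.

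Among 8 receptors related to P2Y12 or once named as P2Y receptors, 3 were called higher, 3 lower and 1 was not called, while Oxgr1 was listed at 0 in all libraries. Over all genes tested, 22.2% were called higher and 28.8% lower. Besides Gpr171 and Gpr82, Lpar6, a lysophosphatidic acid receptor, rose from 2049, 1268 and 1441 in control to 6179, 4978 and 5135 in KO (log2 fold change 1.80, SE 0.16). Lpar4, another lysophosphatidic acid receptor, fell from 238.2, 226.4 and 256.9 to 64.5, 26.8 and 63.8 (log2 fold change -2.30, SE 0.34). Gpr17, a receptor of oligodendrocyte precursors, was also called lower (log2 fold change -2.29, SE 0.63), as were all 5 markers of that cell type. The call of Gpr17 was lost without a variance trend (adjusted p = 0.055) and without KO replicate 3, control replicate 2 or control replicate 3 (adjusted p = 0.061, 0.06 and 0.08). The median over the 7 tested was 0.82.

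Enzymes that clear extracellular nucleotides moved in both directions. Of 8 tested, 2 were called higher and 4 lower, beside 22.2% and 28.8% of all genes, and the median log2 fold change of the 8 was -1.79. Entpd1 (CD39), which converts ATP and ADP to AMP on microglia, had 7003, 6362 and 6297 normalized counts in control and 29493, 30783 and 27363 in KO (log2 fold change 2.16, SE 0.09, adjusted p = 3.1e-08). Entpd2, an ectonucleotidase that mainly converts ATP to ADP, had 765.7, 593.9 and 619.5 in control and 9.9, 16.97 and 22.8 in KO (log2 fold change -5.30, SE 0.31, adjusted p = 2e-07). The mean of Entpd2 was thus 39.8-fold lower in KO. Alpl, tissue-nonspecific alkaline phosphatase, was 31.5-fold lower (790.6, 629.0 and 543.8 against 17.9, 23.3 and 21.3). Nt5e (CD73), which makes adenosine from AMP, was lower (68.7, 121.8 and 148.2 against 20.8, 33.2 and 36.5), as was Enpp3, whose call was lost under quantile normalization (adjusted p = 0.11) and without control replicate 2 (adjusted p = 0.053). Enpp1, which hydrolyses ATP to AMP, was higher (606.5, 732.9 and 616.3 against 1526, 1781 and 2226).

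Of 10 genes of nucleotide release, 3 were called higher and 2 lower, beside 22.2% and 28.8% of all genes, and the median of the 10 was 0.21. Those that rose were Calhm2 (log2 fold change 1.45, SE 0.12), Slc17a9, the vesicular nucleotide transporter (1.42, SE 0.27), and the channel gene Panx1 (0.79, SE 0.23). Those that fell were Panx2 (-2.34, SE 0.69) and Lrrc8a, the obligatory subunit of volume-regulated anion channels (-0.86, SE 0.10). Lrrc8a stood at 4419, 4612 and 4522 in control and 2666, 2693 and 2165 in KO. The call of Panx1 was lost with libraries scaled to the same total (0.55) or to the same total without Rn45s (0.47), and without KO replicate 1 (adjusted p = 0.051). The call of Panx2 was lost under quantile normalization (adjusted p = 0.1), without a variance trend (adjusted p = 0.053) and without control replicate 1, 2 or 3 (the highest adjusted p = 0.071).

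Of 19 genes of P2Y coupling, 7 were called higher and 5 lower, beside 22.2% and 28.8% of all genes, and the median of the 19 was 0.45. The phospholipase C genes split. Plcb2, the form of blood and myeloid cells, rose from 929.4, 708.8 and 830.7 to 4320, 4667 and 3757 (log2 fold change 2.37, SE 0.12, adjusted p = 1e-07), while Plcb1 fell from 1771, 1217 and 1590 to 152.9, 298.4 and 227.9 (log2 fold change -2.78, SE 0.23). Plcb4 also fell (-2.62, SE 0.16). The other genes that rose were Pik3cg and Pik3r5, the catalytic and regulatory subunits of phosphoinositide 3-kinase gamma (1.87 and 1.88), Kcnk13, the THIK-1 potassium channel of microglia (1.76, SE 0.13), Rasgrp3 (1.64), the G protein subunit gene Gng2 (1.53) and the inositol trisphosphate receptor gene Itpr3 (0.85, and 0.53 and not called with the same total without Rn45s). Those that fell besides Plcb1 and Plcb4 were Gna11 (-2.14), Gnai1 (-2.58) and Itpr1 (-1.27). The alpha subunit genes Gnaq, Gnai2 and Gnai3 were not called (log2 fold changes 0.58, 0.19 and 0.45). On the scale of summed microglia markers, none of the genes of release or breakdown was called higher, and of the genes of coupling only Plcb2 was (log2 fold change 0.65, SE 0.12, adjusted p = 0.00037). With the mean log2 level of the markers without Cst3, Plcb2 was at 0.52 and was not called. Panx1 and Itpr3 were called lower on both of these scales, as were 77.2% and 79.1% of all genes tested.

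**Figure D5:**
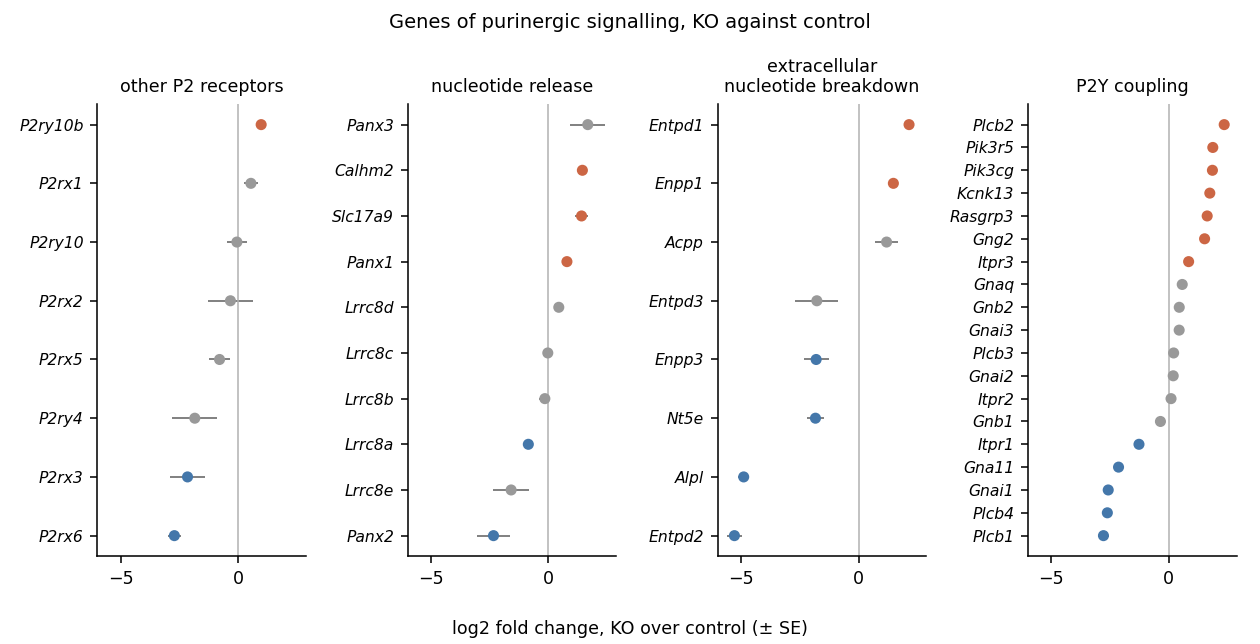
log2 fold change (KO over control, ± SE) of the tested genes of 4 lists, with genes called higher in orange, called lower in blue and not called in grey. The largest fall is Entpd2 at -5.30 and the largest rise is Plcb2 at 2.37.

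For each receptor gene, the genes with the most similar profile were found by the SD of the log2 ratio over the 6 libraries among 11917 genes, as a description with no test. Man2b2 was among the closest to P2ry12 (SD 0.112), against a median of 0.796 over all genes compared. P2ry13 was closest to Susd3 and Fermt3 (both 0.043), Gpr34 to Man1c1 and Slc9a9 (0.061 and 0.068), P2ry6 to Uvrag and Vps54 (both 0.044) and P2rx4 to Primpol and Rin2 (0.037 and 0.050). For P2rx7 these were Pskh1 and Ezh1 (0.025 and 0.037), and for P2ry1 Maged1 and Pdzd2 (0.051 and 0.061). P2ry2 was closest to Cmtr2 and Wrnip1 (0.082 and 0.088). P2ry14 had the loosest partners, Rad51b and F830016B08Rik (0.158 and 0.289), against a median of 1.88. These SDs cover 6 libraries in 2 groups, so they mostly describe a similar difference between the groups.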

How the data were processed

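RNA was taken from sorted TurboRFP-positive olfactory bulb cells and libraries were made from 10 ng of total RNA with the Trio RNA-Seq System. Per the labels and methods, the authors used STAR 2.5.0a for alignment to mm10, counted reads per gene and normalized them with DESeq2 1.20.0. No source used here names the annotation or the strand setting. The deposited signal is named RPM, but in every library 100% of the values were whole multiples (within 0.01 read) of 1 constant and the totals differed, so these are counts divided by a size factor per library. Whole reads were recovered from them.

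limma 3.58.1 in R 4.3.3 was run on log2(value + 1) with a variance trend over genes with a mean of at least 1 (18413 genes, with 6008 left out), with two-sided tests and Benjamini-Hochberg adjustment over all genes. Fold changes on this scale are understated for low genes. edgeR 4.0.16 and DESeq2 1.42.0 were run on the recovered reads as alternatives. The limma step was also run on simulated reads, in which few genes were changed. Changes in these libraries were far broader, so that run is no check on the calls made here. Named genes are the 9 members, the genes of 5 pathway lists, Sox9, genes within 250 kb of a member, and the 2 genes of most similar profile per member, together with the genes of 16 marker lists. The members and lists were chosen with earlier results of these data known. With 1 mouse per library, p-values weigh the group difference against the spread between libraries, which holds mouse and preparation differences together. Replicates of the same number did not deviate together, so the samples were not paired. The marker symbols Trbc2 and Ly6g were not matched. Of the 9 members, 7 matched the RefSeq promoter table. Gpr34 and P2ry6 did not. A few genes that the rule names are not reported here.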

Additional observations from a re-analysis of the deposited data

How the results depend on the processing

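Across 18 settings other than the 2 microglia scalings (pseudocounts, filters, scalings, variance model, replicate block, edgeR, DESeq2 and each library left out), the 7 genes called higher and P2ry1 called lower kept these calls in all 18. With the replicate number as a block, 7 members were called higher and 1 lower, and 4048 and 5227 of all genes. The numbers did not pair the samples (correlations of same-numbered deviations -0.05, -0.01 and -0.01), and the block moved no count by over 1.5 times. P2ry2 reversed under quantile normalization (0.30) and was called under the same total without Rn45s (-0.65), which made 2 members lower. The median of all genes moved by 0.27 under quantile normalization, -0.23 under the same total and -0.31 under the same total without Rn45s.

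Under summed microglia markers, and in brackets under their mean log2 without Cst3, which was chosen after seeing the data, 254 [202] of all genes were called higher and 14222 [14572] lower, and 1 [1] member higher and 3 [3] lower. The log2 fold changes were 0.19 [0.07] for Gpr34, 0.03 [-0.10] for P2rx4, -0.62 [-0.74] for P2rx7, -0.29 [-0.41] for P2ry12, 0.20 [0.07] for P2ry13, -2.04 [-2.17] for P2ry2 and -0.06 [-0.18] for P2ry6. Genes called higher were 1 [0] for coupling and 0 [0] for breakdown, release, other P2 receptors and related receptors. Genes called lower were 13 [13] for coupling, 7 [7] for release and 6 [6] for other P2 receptors, and 5 for related receptors under the scaling without Cst3. The median log2 fold change of all genes tested was -1.67 [-1.79]. These scalings set the microglia markers to no change by construction.

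With a minimum of 2-fold, 2514 of all genes were called higher, and with the same total without Rn45s 2629. Release genes called lower were 1 under 2-fold, without a variance trend and under quantile normalization. Other P2 receptors called higher were 0 under 2-fold and 2 under quantile normalization, and those called lower were 1 with edgeR and under quantile normalization. Related receptors called higher were 1 under 2-fold, the same total and the same total without Rn45s, where Gpr171 and Gpr82 were lost. Leaving out each library in turn gave 1 to 3 release genes lower, 1 to 3 other P2 receptors lower and 1 to 2 related receptors higher. The cause of these moves was not tested. P2ry1, P2ry2 and P2ry14 rest on the fewest reads.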
